A study of Mus musculus with 10 samples.

Results

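Messenger RNA of 10 genes of the tumour necrosis factor (TNF) family was followed in CCR2+ monocytes and neutrophils of mouse lung. The 10 genes were picked by name from 29893 annotated genes, with a view to ligands and receptors of tumour cell killing. They comprised 6 ligand genes (Tnf, Ltb, Tnfsf14, Tnfsf13b, Tnfsf10 and Fasl) and 4 receptor genes (Tnfrsf1a, Tnfrsf1b, Fas and Tnfrsf10b). Not all are death genes, as Tnfsf13b encodes a survival factor for B cells and Tnfrsf1b a receptor without a death domain. All 10 passed the filter on low counts that left 13384 genes for testing.

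The cells were taken from lungs of NOD/scid mice, which lack mature T and B cells, when the animals had reached end point with a breast tumour. The TN2 groups came from mice bearing the low metastatic tumour HCl-002, and the TN1 groups from mice bearing the highly metastatic tumour HCl-001. Monocytes TN2 and neutrophils TN2 were 3 libraries each (tag_367, tag_706 and tag_1341), and monocytes TN1 and neutrophils TN1 were 2 libraries each (tag_191 and tag_482). Each class is represented by 1 tumour, so the tumour and its metastatic class cannot be told apart, and no group is without a tumour. The labels do not say whether tags are separate animals, so p-values measure the spread between libraries, which may be technical.

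TNF family ligands are mostly made as membrane-bound trimers, and some are cut free by metalloproteases. They bind receptors of which some (Tnfrsf1a, Fas and Tnfrsf10b) carry a cytoplasmic death domain. These can recruit Fadd and caspase-8 and trigger apoptosis, or, through ubiquitin ligases, activate NF-kappaB and keep the cell alive. Myeloid cells are a main source of TNF in inflamed lung, and both TNF and the ligand TRAIL, encoded by Tnfsf10, can kill some tumour cells.

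Each library held 7239218 to 11311370 estimated read counts, with 8851 to 15211 genes reaching 5 counts. Within each cell type this number was lowest in TN1 tag_482, at 9732 in monocytes and 8851 in neutrophils. These 2 libraries also had the highest share of transcripts from mitochondrial genes, 19.9% in monocytes and 3.002% in neutrophils, against 4.82% to 5.82% in the other monocyte libraries and 0.283% to 0.813% in the other neutrophil libraries. Csf3r, the granulocyte colony-stimulating factor receptor, ran from 83.3 to 248 CPM (reads scaled to a fixed library total) in monocytes and from 6479 to 9270.0 CPM in neutrophils. Ccr2, the receptor used for the monocyte sort, ran from 226 to 868 CPM in monocytes and from 3.52 to 78.5 CPM in neutrophils, with the highest neutrophil value in TN2 tag_1341. The sum of all 12 monocyte markers went the other way, at 9181 to 22644 CPM in monocytes and 25375 to 46501 CPM in neutrophils, where Cd14, the lipopolysaccharide co-receptor, alone ran from 3747 to 6489 CPM in monocytes and from 23742 to 45468 CPM in neutrophils. Neutrophil library TN2 tag_1341 also held 177 CPM of the monocyte gene F13a1, against 6.31 CPM or less in the other neutrophil libraries. Summed over 11 genes of lung stroma, endothelium and epithelium, monocyte library TN2 tag_706 held 1496 CPM, against 25.7 to 225 CPM in the other monocyte libraries. It also had the highest sum of neutrophil markers among the monocytes, 1568 CPM against 220.0 to 856 CPM. Fewer cells of a type and less RNA per cell cannot be told apart in such libraries.

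Both TNF receptor genes, Fas and the ligand genes Ltb, Tnfsf14 and Tnfsf13b were lower in monocytes than in neutrophils. In the fit over all genes, 6 of 10 passed an adjusted p of 0.05 as lower in monocytes and 0 as higher (edgeR quasi-likelihood test, Benjamini-Hochberg over 13384 genes). Of all genes tested, 27.9% passed in either direction, 12.4% as lower and 15.5% as higher. The median log2 difference, monocytes minus neutrophils, was -1.85 over the 10 genes and 0.46 over all genes tested. For 5 genes (Ltb, Fas, Tnfsf14, Tnfrsf1a and Tnfrsf1b) all 5 monocyte libraries lay below all 5 neutrophil libraries, as was the case for 12.6% of all genes tested. No gene of the 10 showed the opposite separation, which 16% of all genes tested did. The split of calls over all genes differed between methods, with 2070 higher and 1663 lower in edgeR against 4532 and 1198 in limma-trend on log2(TPM + 1), where the 10 genes again gave 0 higher and 6 lower.

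Ltb stood out by size. It encodes lymphotoxin beta, which anchors lymphotoxin alpha in the membrane as a heterotrimer that binds the lymphotoxin beta receptor. It lies on chromosome 17 (35194439 to 35196320, plus strand, GRCm38) beside Tnf (35199381 to 35202007, minus strand) and Lta. Ltb had 0.22, 4.32 and 3.33 CPM in monocytes TN2 and 0.86 and 0 CPM in monocytes TN1, against 108, 113 and 216 CPM in neutrophils TN2 and 82.7 and 96.5 CPM in neutrophils TN1. The lowest neutrophil library was therefore far above the highest monocyte library. The log2 difference was -6.71 ± 0.95 (SE, adjusted p = 0.000777), and the monocyte values rested on 0 to 63 reads per library. The monocyte libraries with the most Ltb, TN2 tag_706 and TN2 tag_1341, also had the highest sums of 12 neutrophil markers, 1568 and 856 CPM, against 220.0 to 341 CPM in the other monocyte libraries, and the part of neutrophil RNA in these values was not tested. A retained-intron form (Ltb-202) took 0% of Ltb transcripts on the per-length scale in monocytes and 9.12% in neutrophils. Lta, encoding the partner chain, reached at most 13 reads in any library and was not tested.

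Promoter sequence is shown for Ltb and 2 other genes that were lower in monocytes, and for Tnf, the neighbour of Ltb that did not pass the test. Sequences are the RefSeq windows of 250 bases upstream of the start (GRCm38.p6), which were given for 9 of the 10 genes, not for Tnfrsf10b. Both strands were searched for the kappaB consensus bound by NF-kappaB, for the interferon-stimulated response element GAAANNGAAA and for the gamma-activated site TTCNNNGAA bound by STAT factors. Capitals mark the matches, and bases inside the annotated gene are left out (68 of the Ltb window).
Ltb (chr17:35194257-35194438, plus strand): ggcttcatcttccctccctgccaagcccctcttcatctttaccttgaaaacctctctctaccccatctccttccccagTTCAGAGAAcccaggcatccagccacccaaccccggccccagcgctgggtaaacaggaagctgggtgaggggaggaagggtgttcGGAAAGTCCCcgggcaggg
Fas (chr19:34290409-34290658, plus strand): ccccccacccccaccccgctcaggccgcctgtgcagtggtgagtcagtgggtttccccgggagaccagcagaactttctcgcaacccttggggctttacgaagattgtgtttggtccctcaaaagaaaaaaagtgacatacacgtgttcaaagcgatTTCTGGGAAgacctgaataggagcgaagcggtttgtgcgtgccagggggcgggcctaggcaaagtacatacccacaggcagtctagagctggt
Tnfrsf1b (chr4:145246871-145247120, minus strand): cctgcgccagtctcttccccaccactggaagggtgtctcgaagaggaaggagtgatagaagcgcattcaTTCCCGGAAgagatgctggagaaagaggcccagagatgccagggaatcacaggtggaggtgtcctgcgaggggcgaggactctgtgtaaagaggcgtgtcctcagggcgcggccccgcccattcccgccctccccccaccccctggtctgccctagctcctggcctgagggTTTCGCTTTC
Tnf (chr17:35202008-35202257, minus strand): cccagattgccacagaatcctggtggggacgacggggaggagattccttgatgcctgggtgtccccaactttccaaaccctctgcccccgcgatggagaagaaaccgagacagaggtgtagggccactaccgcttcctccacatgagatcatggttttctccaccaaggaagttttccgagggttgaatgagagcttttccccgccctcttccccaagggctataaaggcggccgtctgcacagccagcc

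The Ltb window held 1 match to the kappaB consensus, near its downstream end, and 1 gamma-activated site. The Fas window held 1 gamma-activated site, and the Tnfrsf1b window held 1 gamma-activated site and, at its end, 1 interferon-stimulated response element on the opposite strand. None of the 3 motifs was in the Tnf window. A gene was counted if any of its windows held a match, also in bases inside the annotated gene. Over the 9 genes, the kappaB consensus was in 1 (Ltb), the interferon-stimulated response element in 2 (Tnfrsf1b and Tnfsf13b) and the gamma-activated site in 4 (Fas, Ltb, Tnfrsf1a and Tnfrsf1b). The matches of Tnfsf13b and Tnfrsf1a lay inside the annotated gene. Among all 32851 windows of that table the shares were 7.25%, 2.98% and 7.02%. These shares are per window and not per gene, so the 2 units differ.

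**Figure D1:**
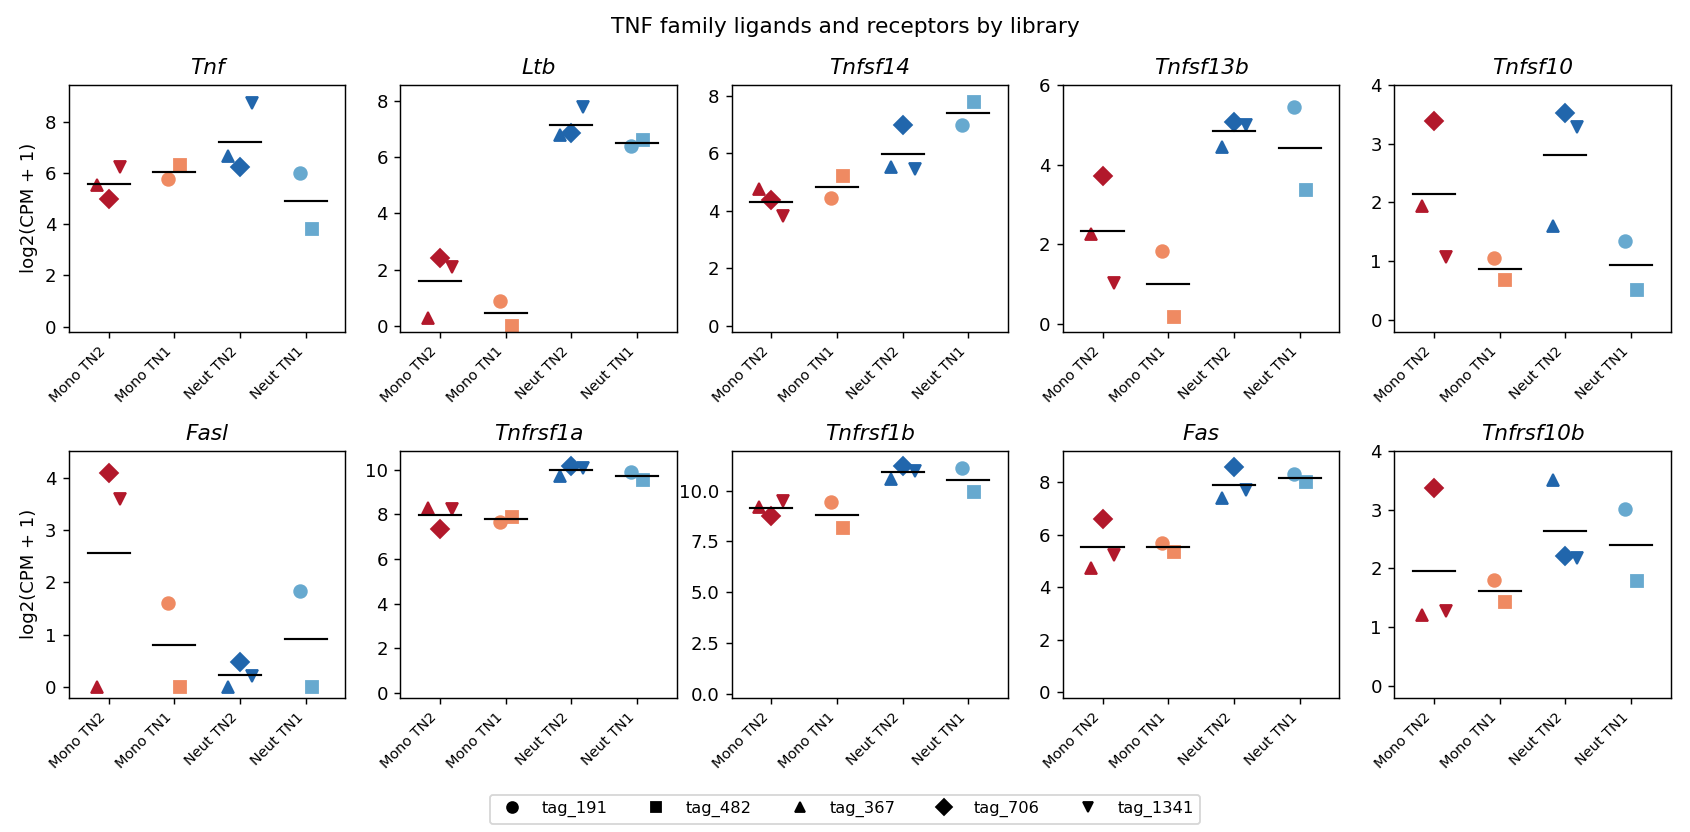
log2(CPM + 1) of the 10 genes in each library, with monocytes TN2, monocytes TN1, neutrophils TN2 and neutrophils TN1 from left to right; each symbol is a tag and each line the group's mean. Ltb shows the widest gap between the cell types, with at most 4.32 CPM in monocytes and at least 82.7 CPM in neutrophils, and Fasl is at 0 CPM in 4 libraries.

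Tnfsf14 encodes LIGHT, a ligand of the lymphotoxin beta receptor and of the herpesvirus entry mediator. It had 26.4, 19.8 and 13.1 CPM in monocytes TN2 and 20.7 and 36.1 CPM in monocytes TN1, against 44.7, 125 and 43.5 CPM in neutrophils TN2 and 127 and 220 CPM in neutrophils TN1. All monocyte libraries lay below all neutrophil libraries (log2 difference -2.23 ± 0.42, adjusted p = 0.00362). Tnfsf13b encodes BAFF, a survival factor for B cells made by myeloid cells. It had 3.79, 12.1 and 1.03 CPM in monocytes TN2 and 2.58 and 0.12 CPM in monocytes TN1, against 20.8, 32.5 and 31.0 CPM in neutrophils TN2 and 42.9 and 9.30 CPM in neutrophils TN1. The ranges touched, because monocyte library TN2 tag_706 lay above neutrophil library TN1 tag_482. The log2 difference of Tnfsf13b was -3.28 ± 0.93 (adjusted p = 0.0264), and its call was lost without neutrophil library TN1 tag_191 (adjusted p = 0.0772), neutrophil library TN2 tag_706 (0.0526) or monocyte library TN1 tag_482 (0.0565).

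The receptors of TNF were high in both cell types and higher in neutrophils. Tnfrsf1a, on chromosome 6 (125349362 to 125362484, plus strand), encodes the death domain receptor TNFR1. It had 309, 163 and 305 CPM in monocytes TN2 and 202 and 234 CPM in monocytes TN1, against 836, 1158 and 1071 CPM in neutrophils TN2 and 942 and 733 CPM in neutrophils TN1. The values of Tnfrsf1a varied little within a cell type and did not overlap between the types (log2 difference -1.96 ± 0.24, adjusted p = 0.00043). Tnfrsf1b, on chromosome 4 (145213463 to 145246870, minus strand), encodes TNFR2, which has no death domain. It had 590.4, 433 and 726 CPM in monocytes TN2 and 691 and 288 CPM in monocytes TN1, against 1513, 2418 and 2001 CPM in neutrophils TN2 and 2228 and 991 CPM in neutrophils TN1. In each cell type the TN1 tag_482 library was the lowest for Tnfrsf1b, and the types did not overlap (log2 difference -1.74 ± 0.34, adjusted p = 0.00444). Per length, the ratio of Tnfrsf1b to Tnfrsf1a in TPM, which is scaled by transcript length, ran from 0.616 to 1.89 in monocytes and 0.695 to 1.21 in neutrophils, so these ranges overlapped.

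Fas encodes the death domain receptor for Fas ligand and lies on chromosome 19 (34290666 to 34327772, plus strand). It had 25.8, 96.4 and 36.03 CPM in monocytes TN2 and 51.0 and 40.0 CPM in monocytes TN1, against 166, 378 and 208 CPM in neutrophils TN2 and 313 and 259.8 CPM in neutrophils TN1. The highest library of each cell type was TN2 tag_706, and the types did not overlap (log2 difference -2.45 ± 0.41, adjusted p = 0.00208). A short annotated transcript, Fas-202 of 555 bases, took 12.3% of Fas TPM in monocytes and 22.1% in neutrophils. These are shares of TPM summed over the libraries of each cell type, with no test. In monocytes Fas-202 ran from 0 TPM in TN1 tag_482 to 20.5 TPM in TN2 tag_706. Tnfrsf10b encodes the mouse death receptor for TRAIL and was low throughout. It had 1.31, 9.33 and 1.43 CPM in monocytes TN2 and 2.47 and 1.68 CPM in monocytes TN1, against 10.4, 3.63 and 3.51 CPM in neutrophils TN2 and 7.04 and 2.43 CPM in neutrophils TN1. The cell types overlapped for Tnfrsf10b, and the difference did not pass the test (-0.86 ± 0.87, adjusted p = 0.488).

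Tnf, Tnfsf10 and Fasl did not pass the test between the cell types either. For Tnf the log2 difference was -0.60 ± 0.58 (adjusted p = 0.465), and for Tnfsf10 it was -0.44 ± 0.91 (adjusted p = 0.744). Both turned positive without neutrophil library TN1 tag_191 (0.17 and 0.14) and under limma-trend on log2(TPM + 1) (0.49 and 0.13). Fasl gave 2.60 ± 1.80 (adjusted p = 0.305), and -0.64 without monocyte library TN1 tag_191.

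**Figure D2:**
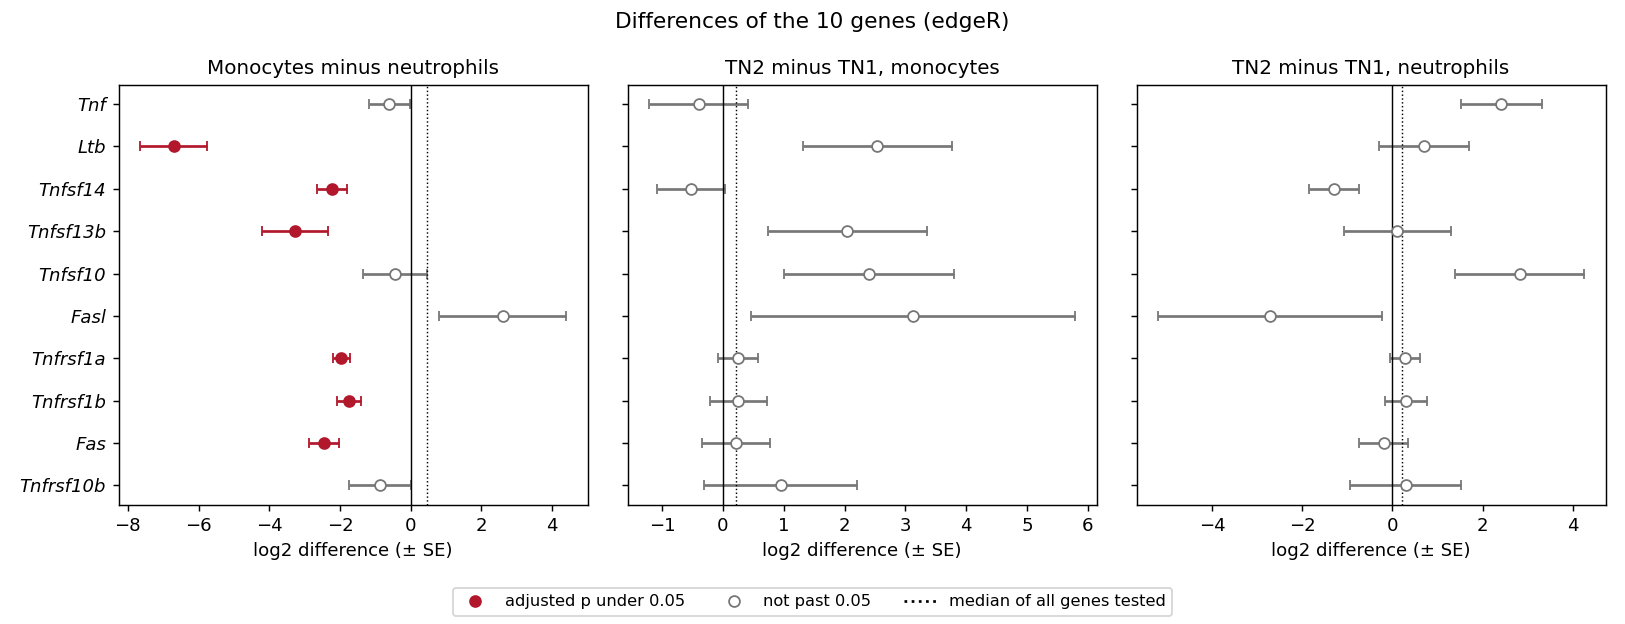
Log2 difference ± SE of each gene in the edgeR fit of 10 libraries, for monocytes minus neutrophils (left) and TN2 minus TN1 in monocytes (middle) and neutrophils (right); filled points have an adjusted p under 0.05 and the dotted line is the median of all genes tested. The 6 filled points are all in the left panel and all below 0, from -6.71 for Ltb to -1.74 for Tnfrsf1b.

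The order of levels, per length, was similar at the top and differed below it. In monocytes the mean TPM ± SD over 5 libraries was 230 ± 85.6 for Tnfrsf1b, 190.7 ± 55.0 for Tnfrsf1a, 65.8 ± 47.3 for Fas and 56.1 ± 16.3 for Tnf. These were followed by Tnfsf14 at 20.1 ± 5.38 TPM and by 5 genes with means of 1.26 to 8.99 TPM (Tnfsf13b, Fasl, Ltb, Tnfrsf10b and Tnfsf10). In that order only Tnf and Tnfsf14 had libraries that did not overlap, with Tnf at 37.6 TPM or more and Tnfsf14 at 25.5 TPM or less. In neutrophils the means were 438 ± 56.3 TPM for Tnfrsf1a, 431 ± 124 for Tnfrsf1b, 207 ± 60.1 for Fas, 107 ± 34.6 for Ltb, 73.9 ± 81.2 for Tnf, 57.4 ± 38.1 for Tnfsf14 and 31.6 ± 14.8 for Tnfsf13b. Next came Tnfrsf10b at 1.60 ± 1.14 TPM, whose highest library (3.40 TPM) was below the lowest of Tnfsf13b (11.1 TPM), while the other neighbours overlapped. Tnfsf10 and Fasl were last in neutrophils, at 0.88 ± 0.92 and 0.31 ± 0.56 TPM.

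Summed over the 6 ligands, monocytes held 76.8 to 117 TPM and neutrophils 215 to 428 TPM. Tnf made up 32.1% to 72.4% of that sum in monocytes and 3.59% to 50.0% in neutrophils. The ratio of Ltb to Tnf in TPM was at most 0.222 in a monocyte library and at least 0.762 in a neutrophil library. Ltb was thus below Tnf in all 5 monocyte libraries and above it in 4 of 5 neutrophil libraries, the exception being TN2 tag_1341. The 4 receptors summed to 281 to 619 TPM in monocytes and 793 to 1318 TPM in neutrophils.

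**Figure D3:**
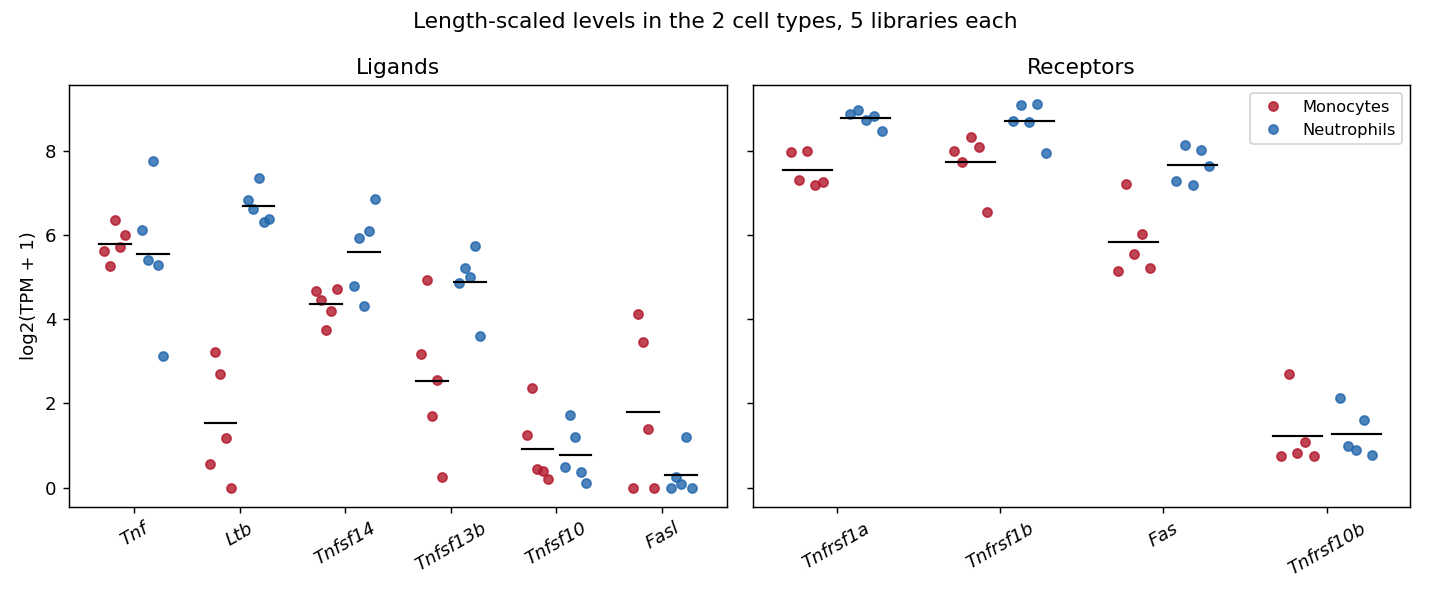
log2(TPM + 1) of the 6 ligand genes (left) and 4 receptor genes (right) in 5 monocyte and 5 neutrophil libraries; points are libraries and lines are means. Tnfrsf1a and Tnfrsf1b are the highest in both cell types, and Ltb is the gene whose place changes most, with means of 3.12 TPM in monocytes and 107 TPM in neutrophils.

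Between the tumours, none of the 10 genes passed the adjusted threshold in either cell type, and 0 of 13384 genes tested did (0%). At an unadjusted p under 0.05 the edgeR fit listed 379 genes in monocytes and 625 in neutrophils, of which 0 and 2 were among the 10. Each of these counts over all genes is a share below 0.05 of the 13384 tested, the share that uniform p-values would give without any difference. DESeq2 called 22 genes in monocytes and 87 in neutrophils at an adjusted p under 0.05, again with 0 of the 10. The median log2 difference TN2 minus TN1 over the 10 genes was 0.60 in monocytes and 0.29 in neutrophils, beside 0.22 over all genes in each cell type. The sum of 10 dendritic cell markers differed between the tumours in the monocyte libraries. It was 3391 to 7398 CPM in TN2, against 9880 to 18498 CPM in TN1. Cd74, the invariant chain of antigen presentation, made up most of each sum, at 3233 to 7137 CPM in monocytes TN2, against 9580 and 17246 CPM in monocytes TN1. Cd209a was at 30.7 to 114 CPM in monocytes TN2, against 131 and 483 CPM in monocytes TN1. For Flt3, Zbtb46, Xcr1, Clec9a, Siglech, Ccr7, Batf3 and Itgae the TN2 and TN1 monocyte libraries overlapped. In neutrophils the sums were 249 to 306 CPM in TN2, against 139 and 140.5 CPM in TN1, and the part of dendritic cell RNA in the tumour differences was not tested.

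Tnf in neutrophils had the smaller p of the 2, an unadjusted 0.0237 (adjusted p = 0.943), and Tnfsf14 in neutrophils the other, an unadjusted 0.0425. Tnf had 44.9, 30.6 and 73.3 CPM in monocytes TN2, against 53.6 and 77.4 CPM in monocytes TN1, and 99.7, 74.4 and 426 CPM in neutrophils TN2, against 62.1 and 12.9 CPM in neutrophils TN1. In monocytes the groups overlapped, and in neutrophils the TN2 libraries lay above the TN1 libraries without overlap, as was the case for 11.8% of all genes tested. The log2 difference was -0.40 ± 0.81 in monocytes, against 2.42 ± 0.90 in neutrophils. The monocyte effect minus the neutrophil effect was -2.82 ± 1.19 (adjusted p = 0.9999), and 0 of 13384 genes (0%) passed for this difference. The highest Tnf value was in neutrophil library TN2 tag_1341, the library with the highest Ccr2 and F13a1 of the neutrophils, and the lowest was in TN1 tag_482, the library with the fewest genes. The part of these libraries in the difference was not tested, and the neutrophil effect was 1.21 without the first of these, 1.70 without the other and 3.97 without TN1 tag_191 (adjusted p = 0.128).

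Tnfsf14 in neutrophils went the other way. Its TN2 libraries (44.7, 125 and 43.5 CPM) lay below its TN1 libraries (127 and 220 CPM), a separation in that direction that 5.91% of all genes tested showed. In monocytes 7.73% of all genes tested, and 0 of the 10, had TN2 below TN1 without overlap. The gap between TN2 tag_706 and TN1 tag_191 was small. The log2 difference was -0.52 ± 0.56 (adjusted p = 1) in monocytes, where the libraries overlapped, and -1.29 ± 0.55 (adjusted p = 0.943) in neutrophils.

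Tnfsf10, encoding TRAIL, was low in both cell types. It had 2.84, 9.46 and 1.11 CPM in monocytes TN2, against 1.07 and 0.60 CPM in monocytes TN1, and 2.03, 10.5 and 8.70 CPM in neutrophils TN2, against 1.54 and 0.43 CPM in neutrophils TN1. Every TN2 library was thus above every TN1 library of its cell type, in monocytes by a margin of 1.11 against 1.07 CPM. In monocytes, 12.4% of all genes tested showed this separation, and Tnfsf10 was the only one of the 10. The log2 differences were 2.40 ± 1.40 in monocytes (adjusted p = 1) and 2.83 ± 1.43 in neutrophils (adjusted p = 0.943). These rest on 14 to 138 reads per TN2 monocyte library and 5 to 10 per TN1 monocyte library, and on 16 to 78 per TN2 neutrophil library and 3 to 12 per TN1 neutrophil library. The 138 reads were in TN2 tag_706, the monocyte library with the highest sums of stromal and neutrophil markers, and the part of such RNA was not tested. With 1 library left out, the difference ran from 1.24, without that library, to 2.71 in monocytes, and from 2.20 to 4.01 in neutrophils. Ltb was the remaining gene without overlap in neutrophils, with a log2 difference of 0.70 ± 0.99, and in monocytes it gave 2.54 ± 1.23 (adjusted p = 1), or 1.44 without TN1 tag_482 and 7.56 without TN1 tag_191.

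Fasl, the gene of Fas ligand, is a hallmark of cytotoxic lymphocytes including natural killer cells. It had 0, 16.0 and 11.1 CPM in monocytes TN2, against 2.04 and 0 CPM in monocytes TN1, and 0, 0.40 and 0.15 CPM in neutrophils TN2, against 2.56 and 0 CPM in neutrophils TN1. Fasl was at 0 in 1 TN2 and 1 TN1 library of each monocyte and neutrophil sort, and the groups overlapped. The log2 difference in monocytes was 3.13 ± 2.67 (adjusted p = 1). In neutrophils there were 4 reads in TN2 and 20 in TN1, the 20 all in tag_191, giving a ratio of 0.135 (95% exact interval of counting error 0.0336 to 0.404). The fitted log2 difference in neutrophils was -2.72 ± 2.48, and 3.94 without TN1 tag_191.

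Several markers of natural killer cells moved with Fasl across the monocyte libraries, but the sum of 12 such markers did not. Ncr1, encoding the receptor NKp46, had 0, 24.2 and 12.0 CPM in monocytes TN2, against 6.12 and 0.12 CPM in monocytes TN1. Gzma, encoding granzyme A, had 0.15, 136 and 48.7 CPM in monocytes TN2, against 54.5 and 6.14 CPM in monocytes TN1. Prf1, encoding perforin, had 0.15, 47.2 and 26.1 CPM in monocytes TN2, against 29.4 and 0 CPM in monocytes TN1. The libraries with the highest Fasl, TN2 tag_706 and tag_1341, were also the highest for Ncr1, and both libraries without Fasl were the lowest for Ncr1, Gzma and Prf1. Over the list of 12 natural killer cell markers, the summed level was 47.0 to 471 CPM in monocytes TN2, against 191.4 to 219 CPM in monocytes TN1, and 1.18 to 62.6 CPM in neutrophils TN2, against 3.005 to 57.3 CPM in neutrophils TN1. Ncr1, Klrb1c and Klre1 were at 0 in monocyte library TN2 tag_367, and Klrb1c, Gzmb, Prf1 and Eomes in TN1 tag_482, where Klrk1 made up most of the sum. Monocyte library TN1 tag_482, without Fasl, held a sum of 191.4 CPM, above the 176 CPM of TN2 tag_1341. Klrk1 was highest in that TN1 library, at 158 CPM. Among neutrophils the highest sum, 62.6 CPM, was in TN2 tag_367, also without Fasl. The part of natural killer cells in the Fasl values was not tested. Of 10 lymphocyte markers, the T cell gene Cd3e was at 0 in all 10 libraries, but others were not. Cd3d was at 20.9 to 40.4 CPM in neutrophils and 0.56 to 9.18 CPM in monocytes. Cd3g was at 3.84 CPM in monocyte library TN2 tag_706 and 1.74 CPM in TN2 tag_1341, and at 0.32 CPM or less in every other library. Il7r was at 12.7 to 28.3 CPM in monocytes and 0.25 CPM or less in neutrophils. The part of lymphocytes in the Fasl values was not tested either.

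**Figure D4:**
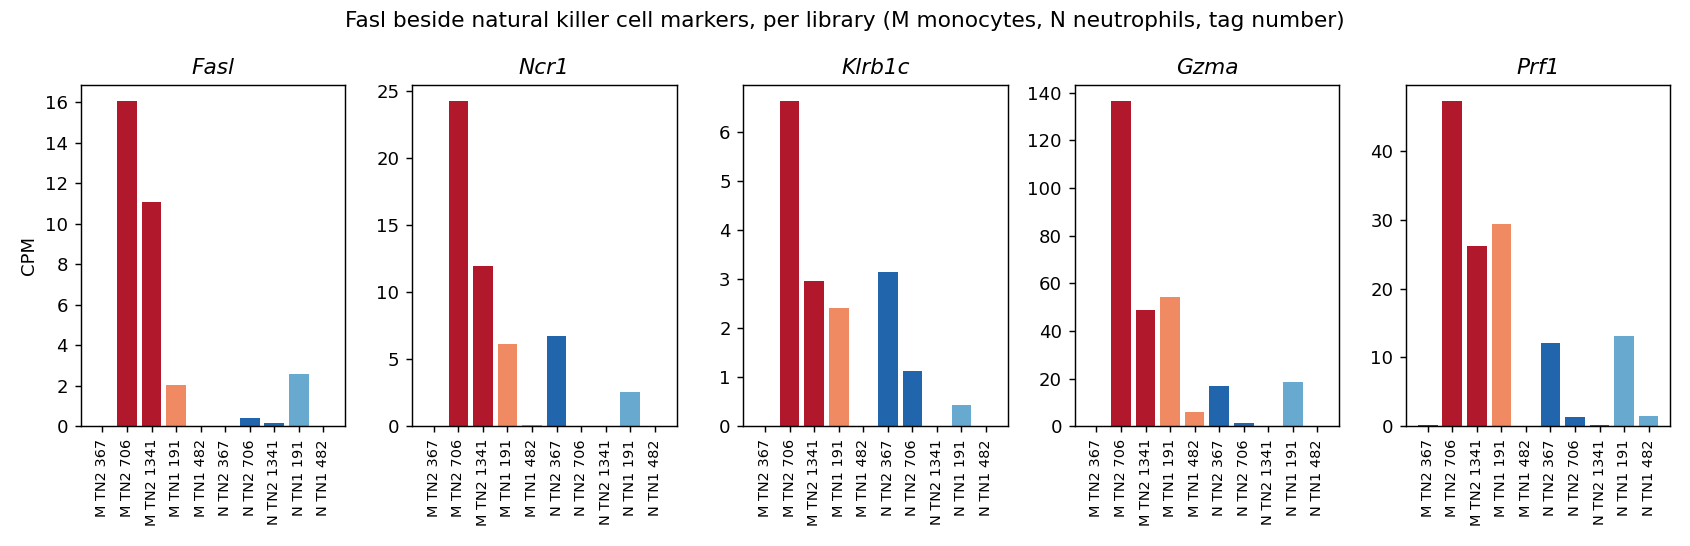
CPM of Fasl and of the natural killer cell genes Ncr1, Klrb1c, Gzma and Prf1 in each library (M, monocytes; N, neutrophils; tumour and tag on the axis). The tallest bar is monocyte library TN2 tag_706 in each panel, with 16.0 CPM for Fasl and 24.2 CPM for Ncr1, and monocyte library TN2 tag_367 is at 0 CPM for both.

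For the receptors the tumour differences were smaller than their errors, and for Tnfsf13b this held in neutrophils only. In monocytes the log2 difference TN2 minus TN1 was 0.25 ± 0.33 for Tnfrsf1a, 0.25 ± 0.47 for Tnfrsf1b, 0.21 ± 0.56 for Fas and 0.95 ± 1.26 for Tnfrsf10b. In neutrophils these were 0.29 ± 0.33, 0.30 ± 0.47, -0.19 ± 0.55 and 0.30 ± 1.23. In monocytes the sign turned without TN2 tag_706 for Fas (-0.55) and Tnfrsf10b (-0.59), without TN1 tag_482 for Fas (-0.12) and Tnfrsf1b (-0.30), and without TN2 tag_1341 for Tnfrsf1b (-0.022). Tnfsf13b gave 2.04 ± 1.30 in monocytes, where it had 13 to 176 reads per TN2 library and 1 to 24 per TN1 library, and 0.11 ± 1.19 in neutrophils. The monocyte value of Tnfsf13b was 0.85 without TN2 tag_706 and 5.24 without TN1 tag_191. In the fit of all 10 libraries, each difference in this paragraph had an adjusted p of 0.965 or above.

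In the authors' deposited table of TN2 against TN1, the adjusted p was 1 for all 10 genes in both cell types. The largest log2 fold of the 10 in the authors' deposited table was 2.22 for Tnf in neutrophils (p = 0.0916), and the lowest was -1.46 for Tnfsf14 in neutrophils (p = 0.0638). Fasl in neutrophils has no fold there because the authors' deposited table marks its expression as insufficient.

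The rest of the family ran in both directions between the cell types. Of all genes tested, 15.5% passed as higher in monocytes and 12.4% as lower, with a median log2 difference of 0.46. Of 12 other ligand genes, 5 were testable, of which 2 rose and 0 fell in monocytes. Their median log2 difference was 3.01 (2.998 with Tnfsf8, which had at most 3 reads on a side, at its bound). Tnfsf9, encoding the 4-1BB ligand, was at 69.5 ± 55.7 CPM in monocytes and 3.81 ± 3.61 CPM in neutrophils (SD, n = 5 each; log2 difference 6.64 ± 0.81, adjusted p = 0.000395). Tnfsf13, encoding APRIL, was at 45.2 ± 20.2 CPM in monocytes and 5.34 ± 5.17 CPM in neutrophils (2.998 ± 0.80, adjusted p = 0.0202), and its call was lost without neutrophil or monocyte library TN1 tag_191, with an adjusted p of up to 0.0610. Lta, Cd40lg, Cd70, Tnfsf11, Tnfsf15, Tnfsf18 and Eda were too low to test.

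Of 24 other receptor genes, 19 were testable, and 4 rose and 3 fell in monocytes, beside 15.5% and 12.4% of all genes tested. Their median log2 difference was 1.25, against 0.46 over all genes tested. Those that rose were Cd40, a costimulatory receptor (72.7 ± 34.4 CPM in monocytes, 9.78 ± 4.46 CPM in neutrophils, log2 difference 2.89 ± 0.39, adjusted p = 0.000588), Tnfrsf21, a death domain receptor, Tnfrsf13b, a receptor of BAFF and APRIL, and Tnfrsf12a, the receptor of TWEAK. The call of Tnfrsf12a was lost without neutrophil library TN1 tag_191, TN2 tag_367 or TN2 tag_1341, monocyte library TN1 tag_482 or TN2 tag_706, or both tag_482 libraries (adjusted p up to 0.190). Those that fell were Tnfrsf23 (6.48 ± 3.57 CPM in monocytes, 55.4 ± 17.4 CPM in neutrophils, -3.08 ± 0.49, adjusted p = 0.00142), Tnfrsf26 (6.22 ± 3.02 CPM in monocytes, 44.2 ± 24.4 CPM in neutrophils) and Tnfrsf22 (15.4 ± 4.27 CPM in monocytes, 38.0 ± 7.28 CPM in neutrophils). Tnfrsf22 and Tnfrsf23 encode mouse decoy receptors that bind TRAIL without a death domain. The 3 genes lie side by side on chromosome 7 (143607659 to 143685872) and are alike in sequence, so the division of reads among them is uncertain. The call of Tnfrsf22 was lost in 6 of 17 other settings, among them that without monocyte library TN1 tag_482 and limma-trend on log2(TPM + 1).

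Of 28 genes of death receptor signalling, all were testable, and 4 rose and 7 fell in monocytes, beside 15.5% and 12.4% of all genes tested. Their median log2 difference was 0.16, below the 0.46 over all genes tested. The split differed between methods, and limma-trend on log2(TPM + 1) gave 11 higher and 4 lower. Among those that fell, Birc3, which encodes the ubiquitin ligase cIAP2, was at 211 ± 37.0 CPM in monocytes and 892 ± 325 CPM in neutrophils (-2.06 ± 0.30, adjusted p = 0.000947). Tnfaip3, which encodes the NF-kappaB inhibitor A20, was at 255 ± 71.2 CPM in monocytes and 1108 ± 863 CPM in neutrophils (-1.91 ± 0.38, adjusted p = 0.0049). Birc2 (cIAP1) and Bid, which is cut by caspase-8, also fell, by 1.93 and 2.55 on the log2 scale. Mlkl, the pore-forming protein of necroptosis, rose (18.4 ± 7.19 CPM in monocytes, 3.31 ± 2.99 CPM in neutrophils, 4.11 ± 0.78, adjusted p = 0.00384). Casp8, which starts the apoptotic cascade (1.23 ± 0.30), Fadd, its adaptor (3.46 ± 1.11), and Ikbkb, a kinase of NF-kappaB activation (0.98 ± 0.28), rose too. The difference of Fadd rests on 0 to 9 reads per neutrophil library and 8 to 153 per monocyte library, the most in TN1 tag_482. Without monocyte library TN1 tag_482, 7 of the 28 genes passed in place of 11, and the calls of Casp8, Fadd and Ikbkb were lost. The call of Fadd held, with a single library left out, only without neutrophil library TN1 tag_191 or monocyte library TN2 tag_1341, and that of Ikbkb only without monocyte library TN2 tag_706 or neutrophil library TN2 tag_367 or TN2 tag_1341.

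Of 5 genes of ligand shedding, 1 rose and 1 fell in monocytes, beside 15.5% and 12.4% of all genes tested. Their median log2 difference was 0.37, below the 0.46 over all genes tested. Rhbdf2, encoding the carrier iRhom2 that brings the TNF-cutting protease ADAM17 to the surface, was at 79.1 ± 17.3 CPM in monocytes and 289 ± 71.1 CPM in neutrophils (-1.90 ± 0.26, adjusted p = 0.000698). Adam10, a protease that cuts Fas ligand, was at 120 ± 36.9 CPM in monocytes and 42.8 ± 27.9 CPM in neutrophils (1.89 ± 0.60, adjusted p = 0.0418), and with a single library left out its call held only without neutrophil library TN1 tag_191 or TN1 tag_482 or monocyte library TN2 tag_706.

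**Figure D5:**
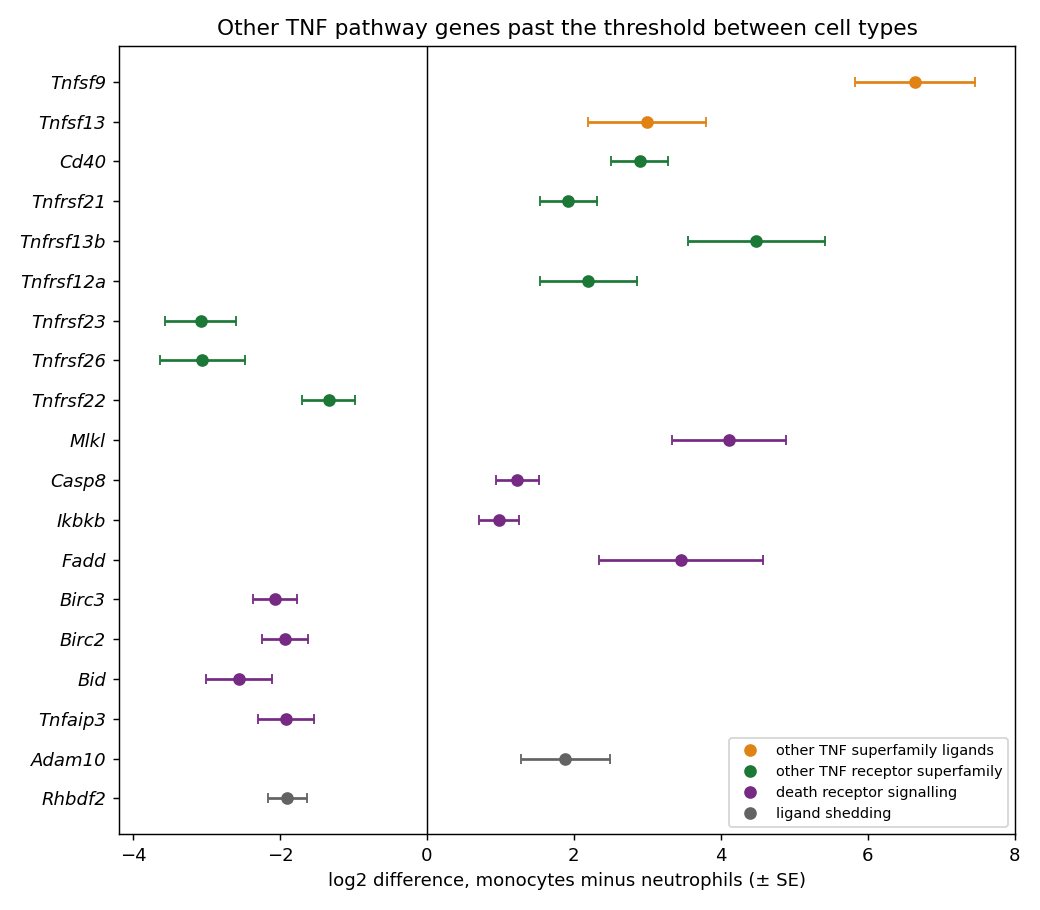
Log2 difference ± SE, monocytes minus neutrophils, of the genes named from the 4 lists of other ligands, other receptors, death receptor signalling and ligand shedding, all with an adjusted p under 0.05 in edgeR. Tnfsf9 is the highest at 6.64, and Tnfrsf23 and Tnfrsf26 are the lowest at -3.08 and -3.06.

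Between the tumours, none of the genes of these 4 lists passed the adjusted threshold in edgeR, in either cell type or for the difference of effects. In monocytes 0 genes of the lists had p under 0.05, and the smallest p belonged to Tnfsf9 among the ligands (-0.66 ± 0.79), Tnfrsf11b among the receptors and Timp3 among the shedding genes (3.90 ± 2.61). Tnfrsf11b, encoding the soluble decoy osteoprotegerin, had 0, 1.85 and 5.62 CPM in monocytes TN2, against 0 and 0 CPM in monocytes TN1, and 71 of its 98 reads were in TN2 tag_1341. Timp3, encoding an inhibitor of ADAM17, was at 711 CPM in TN2 tag_706 and 3.35 and 0.48 CPM in the other TN2 monocyte libraries, against 0.97 and 30.9 CPM in monocytes TN1. TN2 tag_706 was also the monocyte library with the highest sum of lung stroma, endothelium and epithelium markers, 1496 CPM. The part of such RNA in the Timp3 value was not tested.

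In neutrophils the smallest p of the lists was that of Tnfsf9 (adjusted p = 0.741). It had 6.84, 4.43 and 7.63 CPM in neutrophils TN2, against 0.13 and 0 CPM in neutrophils TN1, that is 137 reads against 1, a ratio of 92.7 (95% exact interval of counting error 16.4 to 3686). DESeq2 called Tnfsf9 in neutrophils and for the difference of effects. Mlkl had 5.58, 4.03 and 6.56 CPM in neutrophils TN2, against 0.38 and 0 CPM in neutrophils TN1, with 117 reads against 3 and a ratio of 26.4 (interval 8.81 to 130). DESeq2 called Mlkl in neutrophils too (edgeR adjusted p = 0.943). For Ltbr, the receptor shared by Ltb and Tnfsf14, the log2 difference in neutrophils was 1.48 ± 0.63, and for Adam10 it was 1.73 ± 0.87, each with an adjusted p of 0.943. The difference of effects, monocytes minus neutrophils, was -6.97 ± 1.49 for Tnfsf9, -3.63 ± 1.94 for Tnfrsf8, -1.92 ± 0.59 for Casp8 and -1.81 ± 1.17 for Adam10, with an adjusted p of 0.9999 each.

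Genes with the pattern most like that of Tnf were ranked by Pearson's r of log2(CPM + 1) over the 10 libraries, which share cell type and tag, and the values are given as a description. For Tnf they were Socs1 (0.92), Prnp (0.91), Upf1 (0.90), Fut7 (0.90) and 1700047I17Rik2 (0.90). Of these, Prnp was at 36.2 to 430 CPM, and the other 4 at 29.6 CPM or less. For Tnfsf10 they were Fntb (0.94), Hs1bp3 (0.91), Tas2r126 (0.90), Pradc1 (0.90) and Pgpep1 (0.90), all at 22.4 CPM or less in every library.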

How the data were processed

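Per the labels' protocols, RNA of sorted cells was amplified by Smart-seq2, without molecular identifiers, and the authors quantified reads with kallisto 0.42.3 on the GRCm38 transcriptome. The deposited tables hold estimated counts, TPM and other values (transcript lengths). The authors' deposited comparison tables, made with AltAnalyze per the labels, hold log2 means, which equalled the mean of log2(TPM + 1) for the 10 genes, other fold values and p-values. The test behind these is not given in the sources used here.

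Values were added up per gene by the GENCODE M21 mouse annotation. Of 85276 transcripts, 81839 (96.0%) matched, and unmatched ones, with 1.94% to 3.59% of counts, were left out. Rounded counts were fitted in 1 model of the 4 groups with edgeR 4.0.16 (R 4.3.3, filterByExpr, minimum total 10, TMM, quasi-likelihood F test, Benjamini-Hochberg, threshold 0.05, 6 residual degrees of freedom). The biological coefficient of variation was 0.887. CPM are scaled to TMM library sizes, and levels are mean ± SD. Counting intervals do not cover PCR copying. The code was tested on simulated data. Alternatives were other size factors, no filter, DESeq2 1.42.0, limma 3.58.1 on log2(TPM + 1) and log2(TPM + 0.1), only the groups compared, the tag as a term, and each library left out. Leaving out both tag_482 libraries was chosen after seeing the data.

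The 10 genes and the lists were chosen with earlier results of these data known. From each other list, up to 4 genes per direction with the smallest p among those past the threshold are named, or else the gene with the smallest p. For Tnf and Tnfsf10 the 5 genes with the highest r are named. A gene that the rule for lists names is not reported here.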

Additional observations from a re-analysis of the deposited data

How the results depend on the processing

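Between the cell types, 5 of the 6 genes called (Ltb, Fas, Tnfsf14, Tnfrsf1a and Tnfrsf1b) kept their direction and call in all 17 other settings, and Tnfsf13b in all but the 3 given above. Of the 22 genes of the other lists called there, 12 kept theirs in all 17. DESeq2 called 17 genes of death receptor signalling (11 in edgeR), and 7 passed without monocyte library TN1 tag_482. In the tumour comparisons and for the difference of effects, 0 of the 10 genes were called in any setting. Over all genes, where edgeR called 0, DESeq2 called 22 in monocytes, 87 in neutrophils and 30 for the difference of effects, edgeR with no filter 2 in neutrophils and 1 for the difference, and limma-trend 1 in neutrophils, or 3 with a pseudocount of 0.1. Without monocyte library TN1 tag_191 there were 128 in monocytes and 71 for the difference, and without neutrophil library TN1 tag_191 there were 506 in neutrophils and 372 for the difference. Each of these leaves TN1 with tag_482 alone, which is assumed to vary like the other groups. Between the cell types limma-trend on log2(TPM + 1) called 5730 genes, against 3733 in edgeR. The calls without neutrophil library TN1 tag_191 included Ripk3, Mlkl, Adam10 and Tnfrsf18. Limma-trend on log2(TPM + 1) moved the median of all genes to 0.39 in monocytes, 0.07 in neutrophils, 0.33 for the difference of effects and 0.62 between the cell types.

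Signs turned in these cases, none of them called, and the cause was not tested. Under limma-trend on log2(TPM + 1) the difference of effects was 0.16 for Tnfsf10, 0.33 for Tnfrsf1a and 0.39 for Tnfrsf1b, and monocytes minus neutrophils was 0.49 for Tnf and 0.13 for Tnfsf10. With a pseudocount of 0.1 these were 0.33 for Tnfrsf1a, 0.40 for Tnfrsf1b, 0.52 for Tnf and 0.26 for Tnfsf10. With 1 library left out, the difference of effects ran from -0.24 to 0.83 for Fas, -0.82 to 12.13 for Fasl, -0.80 to 1.36 for Tnfrsf10b, -0.24 to 0.34 for Tnfrsf1a, -0.75 to 0.81 for Tnfrsf1b and -1.62 to 0.19 for Tnfsf10. TN2 minus TN1 in monocytes ran from -0.55 to 0.35 for Fas, -0.59 to 1.13 for Tnfrsf10b and -0.30 to 1.001 for Tnfrsf1b. In neutrophils it ran from -0.62 to 0.027 for Fas, -3.93 to 3.94 for Fasl, -0.41 to 1.27 for Tnfrsf10b, -0.16 to 1.01 for Tnfrsf1b and -0.60 to 1.60 for Tnfsf13b. Monocytes minus neutrophils ran from -0.97 to 0.17 for Tnf, -1.01 to 0.14 for Tnfsf10 and -0.64 to 5.92 for Fasl.

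Tags repeat between the cell types, but deviations from group means correlated at 0.089 for tag_191 and tag_482, -0.057 for tag_367, 0.380 for tag_706 and 0.342 for tag_1341. Not every pair exceeded 0.1, and the labels do not say what an equal tag means, so the tags were not taken as pairs. With the tag as a replicate block, 6 of the 10 genes were called between the cell types and 0 for the difference of effects, and 3335 genes in all between the cell types. Of the other lists, the calls of Tnfrsf22 (adjusted p = 0.0563), Fadd (0.0760) and Traf3 (0.0768) were lost there. Among the 10 genes, few reads limit what can be said of Fasl, Tnfsf10, Tnfrsf10b and, in monocytes, Ltb and Tnfsf13b.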
